A study of Mus musculus with 12 samples.

Results

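Helper T cell cytokines are described here through 10 genes: Il2, Il21, Il4, Ifng, Tnf, Lta, Il17a, Il10, Csf2 and Il3. The genes were looked up by symbol in the tables of each day and read by Ensembl identifier in the table of counts, and all 10 were found among its 55414 gene records. RNA of purified splenic CD4+ T cells was sequenced as 12 libraries, 3 for each of 4 groups. The mice were wild-type (WT) male BALB/c mice, 18 weeks old by the study's text, and the LIP group carried silk ligatures on the maxillary second molars on both sides for 14 days (ligature-induced periodontitis), whereas the control (CTL) group received none. On day 0 the cells were not cultured, and on day 2 they had spent 2 days with IL-2 at 10 ng/mL, anti-TCRβ at 1 µg/mL and anti-CD28 at 1 µg/mL by the labels' protocol, with other concentrations of IL-2 and anti-TCRβ given in the study's methods. The treatment field names anti-CD29 instead in 2 libraries of day 2 (CTL 93, LIP 96) and anti-CD30 in another 2 (CTL 97, LIP 97). Libraries are named by group and by the number in their titles: CTL 88, 89 and 94 and LIP 92, 93 and 94 on day 0, and CTL 92, 93 and 97 and LIP 90, 96 and 97 on day 2. No label says that they come from separate mice, so p-values measure the spread between these samples, which may be technical.

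Library totals ran from 6249018 to 7845676 counts for CTL and from 6279986 to 6625831 for LIP on day 0, and from 8993191 to 9842586 and from 8691699 to 12866718 on day 2. A floor of 3 counts corresponds to 0.233 to 0.480 counts per 1000000 counts (CPM) in these libraries and covers counting error only. The 8 T cell identity genes summed to 2889 to 4126 CPM over all libraries, with none at 0. Within the LIP group of day 2, LIP 90 stood apart, with a chi-square per gene of 43.6 against LIP 96 and 34.8 against LIP 97, where LIP 96 and 97 differed by 10.8. The 8 B cell markers summed to 60.4, 63.9 and 64.5 CPM in CTL 97, LIP 96 and LIP 97 of day 2 and to 19.3 to 23.0 CPM in the other 3 libraries of that day, with up to 3 of the 8 at 0. The 9 CD8 T and NK cell markers summed to 75.2 CPM in LIP 96 and 50.9 CPM in LIP 97 and to 25.9 to 30.7 CPM in the other 4. The largest parts were Gzma with 40.5 CPM in LIP 96 and Klrk1 with 27.2 CPM in LIP 97. Cd8b1, at 9.61 and 7.82 CPM, and Klrd1, at 0.903 and 1.27 CPM, were higher in both than in the other 4, at 3.05 to 5.67 and 0.222 to 0.630 CPM. Nkg7, at 5.83 and 2.99 CPM, lay within the 2.80 to 12.8 CPM of the other 4. Cd8a was at 1.97 and 0.345 CPM, against 0.102 to 1.05 CPM there. Gzma and Prf1 in LIP 97 and Klrk1 in LIP 96 also lay within the range of the other 4, and Klrb1c and Ncr1 held at most 8 and 4 counts a library. On day 0 both lists were higher, at 112 to 141 CPM for B cells and 86.3 to 111 CPM for CD8 T and NK cells. On day 2, markers of myeloid cells stayed at or under 2.19 CPM in sum and those of basophils and mast cells at or under 3.78 CPM. The 10 pancreatic acinar markers summed to 18.6 and 7.70 CPM in LIP 93 and 94 of day 0 and to 0.637 to 1.00 CPM in the other 4 libraries of that day. The 3 gamma-delta T and NKT cell markers found summed to 34.0 to 37.3 CPM in LIP of day 0, above the 20.8 to 33.6 CPM of CTL. Most of this gap lay in Zbtb16, at 20.3, 25.3 and 26.0 CPM in LIP and 18.2, 9.30 and 19.7 CPM in CTL. Trdc overlapped, at 13.1, 11.5 and 10.4 CPM in LIP and 14.9, 11.3 and 11.4 CPM in CTL. The part of these cells in the results was not tested, and in bulk RNA fewer cells of a type and less RNA per cell cannot be told apart.

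Naive helper T cells hold little cytokine RNA. Engagement of the T cell receptor with costimulation switches cytokine genes on through NFAT, AP-1 and NF-kB, and the lineage a cell then takes decides which of them dominates: interferon gamma in type 1 cells, interleukin-4 in type 2 cells, interleukin-17A in type 17 cells and interleukin-21 in follicular helper cells. Interleukin-2 is the early growth factor of the activated cell, and interleukin-10 restrains inflammation.

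Promoters of Il2, Il21, Ifng and Tnf are shown as examples: Il2, Il21 and Tnf each held the largest share of the members' RNA per length in at least 1 library of day 2, and Ifng is the type 1 cytokine among the members. The letters are the 250 bases before the RefSeq start of each gene (RefSeq, GRCm38.p6, C57BL/6J reference and not BALB/c), written in the sense of the gene, and each was found once in GRCm39 by exact match. Capitals mark GGAAA, the core of NFAT sites, or its complement TTTCC, and TATAAA, the TATA box.
Il2: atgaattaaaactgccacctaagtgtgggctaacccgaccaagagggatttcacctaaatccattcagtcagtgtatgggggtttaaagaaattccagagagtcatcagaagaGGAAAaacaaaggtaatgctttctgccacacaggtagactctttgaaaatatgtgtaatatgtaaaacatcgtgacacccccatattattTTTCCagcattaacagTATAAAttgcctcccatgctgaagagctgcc
Il21: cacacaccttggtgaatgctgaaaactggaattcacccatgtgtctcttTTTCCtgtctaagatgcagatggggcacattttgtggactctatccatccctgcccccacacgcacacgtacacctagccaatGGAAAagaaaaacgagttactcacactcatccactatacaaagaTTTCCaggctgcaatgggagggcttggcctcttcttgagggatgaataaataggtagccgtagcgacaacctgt
Ifng: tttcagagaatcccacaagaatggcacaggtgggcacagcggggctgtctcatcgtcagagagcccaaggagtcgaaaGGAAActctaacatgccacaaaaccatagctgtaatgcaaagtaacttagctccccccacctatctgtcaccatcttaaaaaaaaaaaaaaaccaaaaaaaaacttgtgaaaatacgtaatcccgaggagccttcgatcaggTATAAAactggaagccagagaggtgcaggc
Tnf: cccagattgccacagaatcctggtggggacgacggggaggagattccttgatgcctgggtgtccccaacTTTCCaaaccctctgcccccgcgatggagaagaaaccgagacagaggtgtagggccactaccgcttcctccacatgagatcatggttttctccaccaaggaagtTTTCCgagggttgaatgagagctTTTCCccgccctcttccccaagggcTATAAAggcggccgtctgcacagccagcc
In GRCm39 they lie at chr3:37180104-37180353, minus strand, for Il2, chr3:37286786-37287035, minus strand, for Il21, chr10:118276701-118276950, plus strand, for Ifng, and chr17:35420984-35421233, minus strand, for Tnf. TATAAA was at positions -31 to -26 from the start in Il2, -30 to -25 in Ifng and -29 to -24 in Tnf, and was not found in these letters of Il21. Promoters were listed for 9 of the 10 genes, Il10 being without an entry. On either strand, GGAAA was in 8 of the 9, TATAAA in 5, the AP-1 motif TGANTCA in 1 (Il17a), and the NF-kB consensus in 0, whereas 55.6%, 12.4%, 6.75% and 7.25% of all 32851 promoters of the same length held them. The TATAAA of Lta was at positions -167 to -162, farther from the start than in the other genes that held it. The RefSeq start of Csf2 lies upstream of its annotated start, at -232 bases, so the letters searched for Csf2 leave out the bases between the 2 starts. The promoter of Il4 nearest to its annotated start held 5 copies of GGAAA, against 3 in Il21 and Tnf, 2 in Il2 and 1 in Ifng.

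Il17a, Il3, Csf2 and Il10 were under 3 counts in most libraries of day 0. Of 120 values, 27 were under 3 counts, 23 on day 0 and 4 on day 2. Il17a and Il3 were under 3 counts in 8 libraries each, Csf2 in 5, Il10 in 4, and Il4 and Il21 in 1 each, whereas Il2, Ifng, Tnf and Lta reached 3 counts in every library. The plot of the 10 genes by library shows each of these values.

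**Figure D1:**
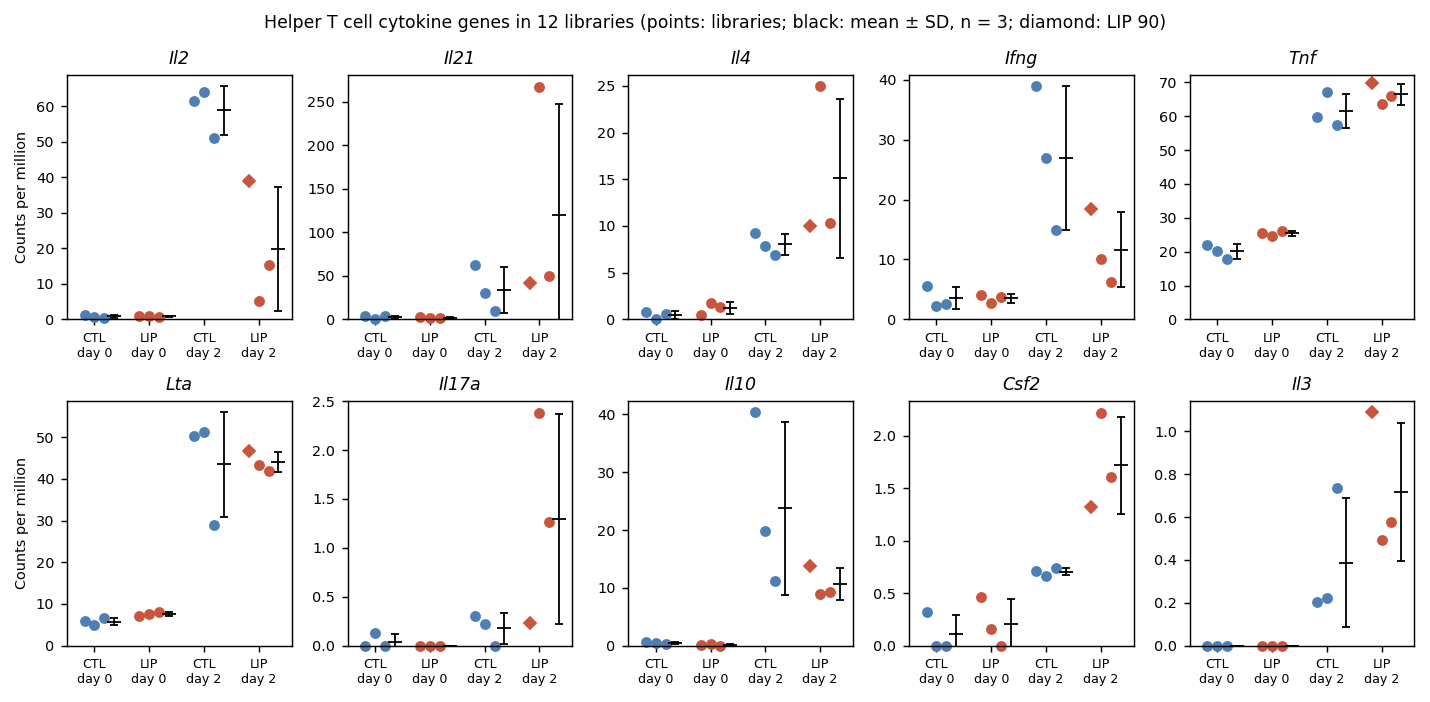
CPM of the 10 cytokine genes (linear axes from 0, a scale for each gene) in the 12 libraries, with points for libraries, a diamond for LIP 90 of day 2 and black bars for the mean ± SD of 3 libraries, cut at 0. Il2 sat between 51.1 and 63.9 CPM in the CTL group of day 2 and between 5.17 and 39.02 CPM in the LIP group, while Tnf sat between 57.5 and 69.7 CPM in both.

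Il2, the growth factor that activated T cells make for themselves (chr3:37174672-37180108, minus strand), was at 1.28, 0.765 and 0.429 CPM in CTL 88, 89 and 94 of day 0, and LIP 92, 93 and 94 held 0.923, 0.955 and 0.604 CPM. On day 2 it was at 61.5, 63.9 and 51.1 CPM in CTL 92, 93 and 97 and at 39.02, 5.17 and 15.3 CPM in LIP 90, 96 and 97. All 3 LIP libraries of day 2 lay under all 3 CTL libraries, and LIP 96 was the lowest.

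Il21, made by follicular helper and type 17 cells and acting on B cells and T cells, lies on the same chromosome 96799 bases from Il2 (chr3:37276908-37286785, minus strand). On day 0 it was at 3.36, 0.255 and 3.72 CPM in CTL 88, 89 and 94, and LIP 92, 93 and 94 held 2.31, 1.75 and 1.81 CPM. In the day 2 cells it was at 62.5, 29.8 and 9.88 CPM in CTL 92, 93 and 97 and at 41.4, 268 and 49.9 CPM in LIP 90, 96 and 97. LIP 96 was far above every other library, and the groups overlapped. The counts of Il21 relative to those of Il2 in the same library were 1.02, 0.466 and 0.193 in CTL 92, 93 and 97, whereas they were 1.06, 51.7 and 3.26 in LIP 90, 96 and 97.

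Il4, the type 2 cytokine that drives antibody class switching (chr11:53493809-53509496, minus strand), was on day 0 at 0.800, 0 and 0.572 CPM in CTL 88, 89 and 94, beside 0.461, 1.75 and 1.36 CPM in LIP 92, 93 and 94. After culture it was at 9.25, 7.89 and 6.94 CPM in CTL 92, 93 and 97 and at 9.95, 25.0 and 10.4 CPM in LIP 90, 96 and 97. The day 2 groups did not overlap, but LIP 90 and the highest CTL library were close. Kif3a, on the opposite strand, overlaps the Il4 gene and was also highest in LIP 96, at 33.8 CPM against 12.9 to 20.0 CPM in the other 5 libraries of day 2; the library kit kept strand, but whether the counting used it is not stated, so reads of both genes could have been mixed.

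Ifng, the macrophage-activating cytokine of type 1 cells (chr10:118276951-118281797, plus strand), was on day 0 at 5.60, 2.29 and 2.58 CPM in CTL 88, 89 and 94, and LIP 92, 93 and 94 held 4.00, 2.71 and 3.77 CPM. On day 2 it was at 39.01, 26.9 and 14.9 CPM in CTL 92, 93 and 97 and at 18.5, 10.1 and 6.21 CPM in LIP 90, 96 and 97. The groups overlapped, since LIP 90 lay above CTL 97. The record Gm49751 overlaps Ifng on the same strand and held 36 to 61 counts a library on day 0, where Ifng itself held 17 to 35, and 4 to 29 on day 2.

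Tnf, an inflammatory cytokine that acts on vessels and leukocytes (chr17:35418357-35420983, minus strand), was on day 0 at 22.1, 20.3 and 17.9 CPM in CTL 88, 89 and 94, below the 25.5, 24.7 and 26.1 CPM of LIP 92, 93 and 94. After culture it was at 59.7, 67.2 and 57.5 CPM in CTL 92, 93 and 97, beside 69.7, 63.7 and 65.9 CPM in LIP 90, 96 and 97. Every group varied little, with a coefficient of variation of 2.82% to 10.5%, and the groups were apart on day 0 and overlapped on day 2.

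Lta, which encodes lymphotoxin alpha of the TNF family and lies 1157 bases from Tnf (chr17:35422141-35424327, minus strand), was on day 0 at 5.92, 4.84 and 6.58 CPM in CTL 88, 89 and 94, below the 7.23, 7.48 and 8.15 CPM of LIP 92, 93 and 94. The day 2 values were 50.3, 51.4 and 29.0 CPM in CTL 92, 93 and 97, beside 46.7, 43.3 and 42.0 CPM in LIP 90, 96 and 97. CTL 97 was the lowest of day 2, and the LIP libraries lay between it and the other CTL libraries.

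Il17a, the neutrophil-recruiting cytokine of type 17 cells (chr1:20801129-20804720, plus strand), had 1 count in CTL 89 and 0 in the other 5 libraries of day 0. On day 2 it was counted 3, 2 and 0 times in CTL 92, 93 and 97, whereas LIP 90, 96 and 97 held 3, 29 and 11 counts. Counts above the floor were thus seen in LIP 96 and LIP 97 only, while LIP 90 had as many as CTL 92.

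Il10, which damps inflammatory responses (chr1:130947581-130952711, plus strand), was counted 4, 3 and 2 times in CTL 88, 89 and 94 of day 0 and 1, 2 and 0 times in LIP 92, 93 and 94. In the day 2 cells it was at 40.3, 19.9 and 11.1 CPM in CTL 92, 93 and 97 and at 13.8, 8.87 and 9.20 CPM in LIP 90, 96 and 97. The CTL libraries were widely spread, and LIP 90 lay above the lowest of them.

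Csf2 encodes GM-CSF and Il3 encodes interleukin-3, growth factors for myeloid cells whose genes lie 15635 bases apart (chr11:54138097-54140493 and chr11:54156129-54158103, both minus strand). On day 0 Csf2 was counted 2, 0 and 0 times in CTL 88, 89 and 94 and 3, 1 and 0 times in LIP 92, 93 and 94. On day 2 the counts of Csf2 were 7, 6 and 7 for CTL 92, 93 and 97, beside 17, 27 and 14 for LIP 90, 96 and 97. Il3 had 0 counts in all 6 libraries of day 0, and on day 2 the counts were 2, 2 and 7 for CTL 92, 93 and 97, beside 14, 6 and 5 for LIP 90, 96 and 97. On day 2 all LIP libraries were above all CTL libraries for Csf2, whereas the groups overlapped for Il3.

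Ifng, Tnf, Il21 and Lta, the members that passed the filter on low counts on each day alone, rose with 2 days of stimulation in both groups. In edgeR's quasi-likelihood test on all 12 libraries, 8 members passed the filter over the 12 and all 8 were called higher at an adjusted p under 0.05 in either group. The share of all 15475 tested genes called was 69% for CTL, 35.3% higher, and 71.8% for LIP, 36.6% higher. The median log2 fold change of the 8 members was 3.59 for CTL and 3.67 for LIP, where that of all genes was -0.02 and 0.00. Il2, Il4 and Il10 did not pass the filter on the day 0 libraries alone, so they entered through day 2 and had to differ. Csf2 did not pass there either, and it reached the filter's cutoff in the LIP libraries of day 2 only. It thus had to differ in LIP, whereas the filter did not fix its change in CTL. Ifng, Tnf, Il21 and Lta passed on day 0 as well. The count and the median over the 8 are descriptions only.

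Among the 4 members that passed on each day alone, Il21 had the largest estimated rise. In the CTL group Il21 rose by 4.02 (SE 0.94, edgeR adjusted p 0.00169) on the log2 scale, Ifng by 3.15 (SE 0.45, edgeR adjusted p 3.28e-05), Lta by 3.10 (SE 0.21, edgeR adjusted p 2.54e-08) and Tnf by 1.80 (SE 0.11, edgeR adjusted p 1.57e-08). There the 95% interval of Il21, 2.01 to 6.04, held the whole of that of Ifng, 2.18 to 4.13, so their order is not settled. In the LIP group Il21 rose by 6.28 (SE 0.96, edgeR adjusted p 5.2e-05), or by 4.90 without LIP 96, Lta by 2.89 (SE 0.20, edgeR adjusted p 3.4e-08), Ifng by 2.11 (SE 0.46, edgeR adjusted p 0.00108) and Tnf by 1.74 (SE 0.11, edgeR adjusted p 1.65e-08). Tnf, already the most abundant member per length on day 0, changed least in both groups. For the 4 members that entered through day 2, the fitted log2 fold changes are given as sizes only: in CTL and LIP they were 6.34 and 4.94 for Il2, 5.92 and 6.32 for Il10, 4.36 and 4.02 for Il4, and 2.87 and 3.32 for Csf2. Leaving out 1 library gave, in LIP, 3.91 to 5.41 for Il2, 5.77 to 7.22 for Il10, 3.45 to 4.39 for Il4 and 2.76 to 4.57 for Csf2. For CTL the ranges were 6.07 to 6.77 for Il2, 5.34 to 6.28 for Il10 and 3.72 to 5.02 for Il4. The value of Csf2 in the CTL group rests on the 2 counts of CTL 88, the only ones of its day 0 libraries, and without CTL 89 it was 2.29 and no longer called; without CTL 88, where both day 0 libraries left are at 0, the fit gave 5.72, which is no bound. The groups were summed for the members with few counts on day 0. Il17a was at least 8.25-fold higher on day 2 in the LIP group (43 counts against 0, set against a floor of 3 counts over the group; at least 4.201-fold without LIP 96, which held 29 of the 43) and 3.72-fold (95% counting interval 0.416 to 176) in the CTL group. Il3 was at least 2.73-fold higher in CTL and at least 4.79-fold higher in LIP by the same floor. For Csf2 in the CTL group the ratio was 7.44 (1.81 to 65.6), and for Il10 in the LIP group it was 70.2 (23.8 to 342).

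**Figure D2:**
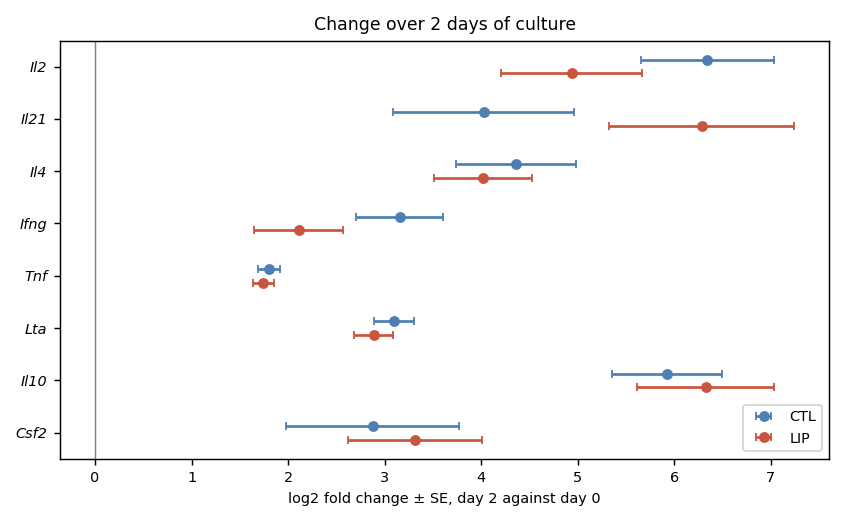
Log2 fold change ± SE of day 2 against day 0 (horizontal axis) for the 8 members that passed the filter, for CTL (blue) and LIP (red), from the fit over 12 libraries. All 16 values are above 0, from 1.74 for Tnf in the LIP group to 6.34 for Il2 in the CTL group.

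On day 0, no member passed the test between LIP and CTL, and Tnf and Lta had slightly higher values in LIP. Only Ifng, Tnf, Il21 and Lta passed the filter, and 0 of the 4 were called by edgeR's quasi-likelihood test, where 0.427% of 14064 genes were called. At an unadjusted p under 0.05 there was 1, Tnf, against 13.9% of all genes. DESeq2 gave none of the 4 an adjusted p, and it had 0 of them at an unadjusted p under 0.05, against 9.31% of all genes, while it called 3.07% of the 6702 genes that had an adjusted p. Tnf was higher in LIP by 0.27 on the log2 scale (SE 0.12, 95% interval 0.01 to 0.53, edgeR adjusted p 0.335), and the values of Lta were also apart, with a difference of 0.33 (SE 0.20, interval -0.11 to 0.78, edgeR adjusted p 0.494). Both had higher values in every LIP library, as did 9.66% of all genes. For Ifng the difference was -0.04 (interval -0.84 to 0.76) and for Il21 -0.34 (interval -1.67 to 0.98), intervals that reach far to both sides of 0. CTL 94 stood apart from the other CTL libraries in the early response genes Fos, at 55.4 CPM against 138 and 173 CPM, and Jun, at 176 CPM against 308 and 336 CPM, and both genes encode parts of AP-1; without CTL 94 edgeR called 0 of the 4 members, with 0 at an unadjusted p under 0.05, and 4.59% of 14343 genes.

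On day 2, no member passed the adjusted threshold between LIP and CTL either, although the members were spread to both sides: Il2, Ifng and Il10 had lower mean levels in LIP, and the other 7 higher ones, by little for Tnf and Lta and on few counts for Il17a, Il3 and Csf2. Of the 8 members tested, edgeR's quasi-likelihood test called 0, as it called 0 of all 14041 genes (0%). Csf2 passed the filter only through the LIP libraries and so had to differ, whereas the other 7 tested reached the filter's cutoff of 1.03 CPM in all libraries of both groups. At an unadjusted p under 0.05 there were 5 of these 7, 3 lower and 2 higher, against 16.5% of all genes, 8.2% lower and 8.33% higher, and Csf2 besides. DESeq2 called 0 of the same 7, giving no adjusted p for Csf2, against 3.62% of 13490 genes, and had 3 of the 7 at that unadjusted p, against 15% of all genes, and Csf2 besides. The groups did not overlap for Il2, lower, as 11.3% of all genes were, and Il4, higher, as 9.99% were, nor for Csf2.

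Il2, Ifng and Il10 were the members with lower values in LIP at an unadjusted p under 0.05. Il2 averaged 58.8 ± 6.83 CPM (SD, n = 3) in CTL and 19.8 ± 17.4 CPM in LIP, a log2 fold change of -1.47 (SE 0.55, interval -2.72 to -0.23, edgeR adjusted p 0.240). Ifng averaged 26.9 ± 12.0 and 11.6 ± 6.28 CPM, a log2 fold change of -1.10 (SE 0.42, edgeR adjusted p 0.248). Il10 averaged 23.8 ± 15.0 and 10.6 ± 2.77 CPM, a log2 fold change of -1.06 (SE 0.41, edgeR adjusted p 0.255).

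Csf2, Il4 and Il21 were the members with higher values in LIP at an unadjusted p under 0.05. Csf2 averaged 0.705 ± 0.0347 CPM in CTL and 1.72 ± 0.457 CPM in LIP, a log2 fold change of 1.36 (SE 0.36, edgeR adjusted p 0.150), on 6 to 27 counts a library and with the CTL libraries under the cutoff of the filter. Il4 averaged 8.03 ± 1.16 and 15.1 ± 8.56 CPM, a log2 fold change of 1.00 (SE 0.36, edgeR adjusted p 0.224). Il21 averaged 34.1 ± 26.6 and 119.7 ± 128 CPM, a log2 fold change of 1.91 (SE 0.80, edgeR adjusted p 0.284), most of it in LIP 96. Tnf and Lta differed by 0.20 (interval -0.06 to 0.46) and 0.10 (interval -0.36 to 0.57), so that a change of Tnf by over 0.46 on the log2 scale lay outside its interval.

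The count of calls changed when LIP 90 was left out and when no filter was used, and the sizes changed when LIP 96 or CTL 92 was left out. Without LIP 90, edgeR's quasi-likelihood test called 13.9% of 14453 genes, among them Il2 at -2.46 (SE 0.35, adjusted p 0.0023), Ifng at -1.59 (SE 0.37, adjusted p 0.0209) and Il4 at 1.26 (SE 0.32, adjusted p 0.0285). Il21 stayed just short, at 2.34 (SE 0.69, edgeR adjusted p 0.0530), as did Il10, at -1.29 (edgeR adjusted p 0.0801). Il17a (3.41) and Csf2 (1.54) passed the filter of this fit only through the LIP libraries and so had to differ; with them 5 of 9 members were past the threshold, a count that is not set against the share of all genes. The 2 LIP libraries left were those with the higher sums of CD8 T and NK cell markers and 2 of the 3 with more B cell marker RNA. Gzma and Klrk1 held the largest parts of the former sums, and Cd8b1 and Klrd1 were also higher in both, while Nkg7 and Cd8a were not. Without LIP 96 instead, edgeR called 0 of 8 members and 0.00696% of 14370 genes, 2 members had an unadjusted p under 0.05, and Il21 was at 0.53 (SE 0.56, edgeR adjusted p 0.799), Il4 at 0.44 (SE 0.21, edgeR adjusted p 0.548) and Il2 at -1.004 (SE 0.33, edgeR adjusted p 0.398). Without CTL 92, Il10 was at -0.47 (SE 0.31, edgeR adjusted p 0.602). With no filter on low counts and all 6 libraries, 6 of 10 members were called, Il2, Ifng and Il10 lower and Il4, Il17a and Il21 higher, with edgeR adjusted p from 0.0158 to 0.0452, among 2.57% of 25712 genes. With CTL 97, LIP 96 and LIP 97, the libraries with more B cell marker RNA, left out (an alternative chosen after seeing the data), LIP 90 alone stood for the LIP group, so that the values carry no spread between LIP libraries: Il2 differed by -0.58, Il10 by -1.01 and Il21 by -0.04 on the log2 scale.

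**Figure D3:**
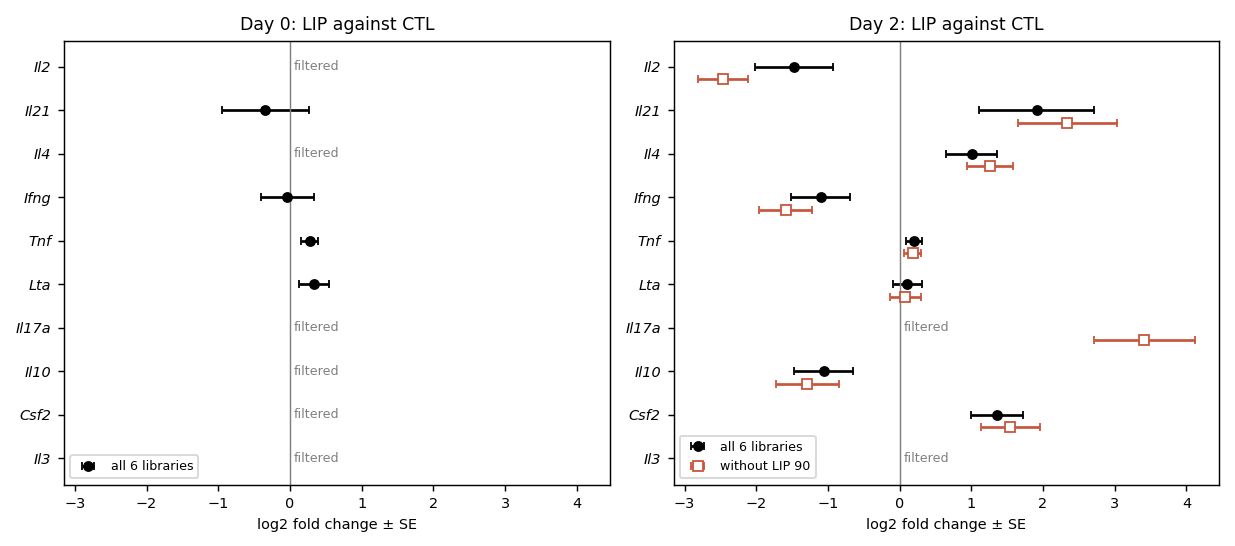
Log2 fold change ± SE of LIP against CTL (horizontal axis) for each member, with day 0 in the left panel and day 2 in the right, with black circles for all 6 libraries of the day and open red squares for the fit without LIP 90; members that did not pass the filter are marked. On day 2 Il2 moved from -1.47 to -2.46 and Il21 from 1.91 to 2.34 without LIP 90, while Tnf stayed at 0.20 and 0.18.

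Whether the response to stimulation differed between the groups was tested as the difference of the LIP effect between the days. edgeR's quasi-likelihood test called 0 of the 8 members and 0.0517% of 15475 genes. At an unadjusted p under 0.05 there were 0 members, against 15.9% of all genes. DESeq2 called 0 of the 7 members with an adjusted p, against 4.36% of 12174 genes, and had 0 at an unadjusted p under 0.05, against 14.3% of all genes. The estimate was 2.26 for Il21 (interval -1.01 to 5.53), -1.41 for Il2 (interval -4.36 to 1.54) and -1.05 for Ifng (interval -2.48 to 0.39), intervals that all hold 0. Leaving out 1 library moved these values from 0.87 (without LIP 96) to 3.02 (without CTL 92) for Il21, from -0.94 (without LIP 96) to -2.44 (without LIP 90) for Il2 and from -0.70 (without CTL 92) to -1.57 (without LIP 90) for Ifng. Without LIP 90, Il2 and Ifng were at an unadjusted p under 0.05 (edgeR adjusted p 0.0998 and 0.112), where 10.1% of 15823 genes were called. For Tnf the difference was -0.06 (interval -0.40 to 0.28) and for Lta -0.21 (interval -0.84 to 0.41). With no filter, Il21 alone was called, at 2.26 (SE 0.59, edgeR adjusted p 0.0127), among 2.89% of 28221 genes.

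Per kilobase of exon, which allows genes to be compared, the order of the members changed with stimulation and with the group. On day 0 Tnf led in both groups, at 12.2 ± 1.29 CPM per kilobase (SD, n = 3) in CTL and 15.5 ± 0.438 in LIP, followed by Lta at 3.58 ± 0.544 and 4.72 ± 0.295 and by Ifng at 2.70 ± 1.42 and 2.70 ± 0.533. Lta and Ifng overlapped in CTL and not in LIP. In the CTL group of day 2 Il2 led, at 51.4 ± 5.97, above Tnf at 37.5 ± 3.09 in all libraries, and then came Lta at 27.0 ± 7.82, Ifng at 20.8 ± 9.30 and Il10 at 18.1 ± 11.4, which overlapped each other. Il4 and Il21, at 6.54 ± 0.946 and 6.48 ± 5.05, also overlapped, and Csf2, Il3 and Il17a were under 1 CPM per kilobase.

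In the LIP group of day 2 Tnf led, at 40.5 ± 1.85, and Lta, Il21, Il2, Il4 and Ifng followed, at 27.3 ± 1.51, 22.8 ± 24.4, 17.3 ± 15.2, 12.3 ± 6.97 and 8.96 ± 4.85 CPM per kilobase, each overlapping its neighbour in the order. Of the 10 members' summed CPM per kilobase, Il2 held 26.4%, 31.4% and 35.1% in the CTL libraries of day 2 and 22.7%, 2.80% and 11.8% in LIP 90, 96 and 97. Il21 held 1.48% to 5.85% in the CTL libraries and 5.25%, 31.5% and 8.37% in LIP 90, 96 and 97. The member with the largest share was thus Il2 in all 3 CTL libraries, Tnf in LIP 90 and LIP 97, and Il21 in LIP 96.

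**Figure D4:**
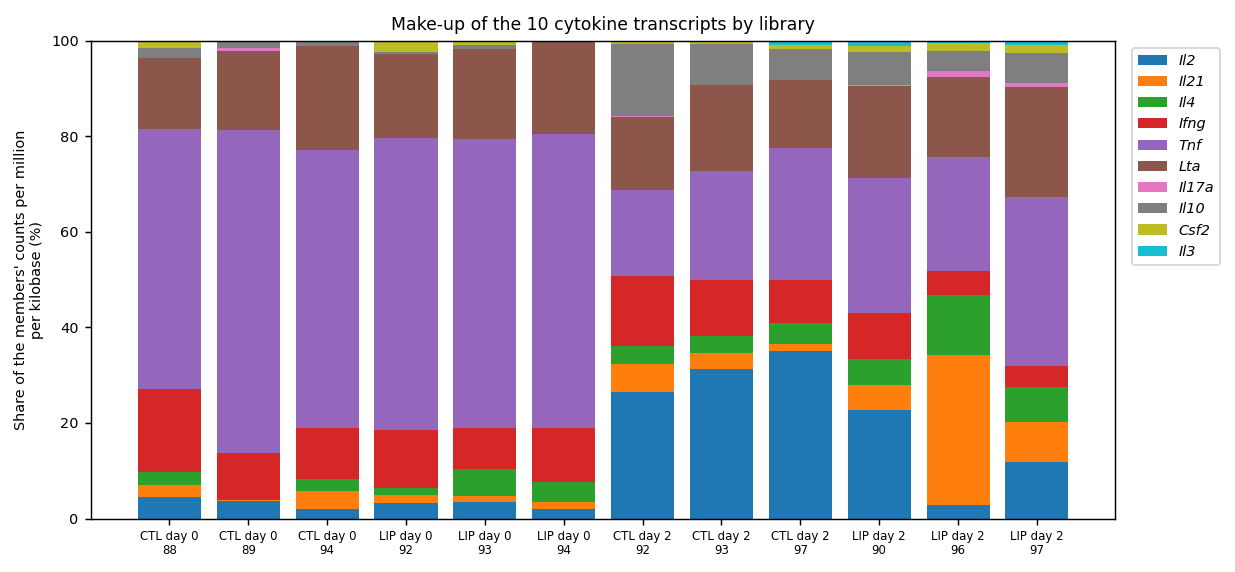
Share of each member in the summed CPM per kilobase of exon of the 10 genes (stacked bars, percent, from 0 to 100) in each of the 12 libraries. Tnf took 54.4% to 67.7% in the libraries of day 0, and on day 2 the Il2 share was 26.4% or more in the CTL libraries and 22.7% or less in the LIP libraries.

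Genes beside the members in the genome were read as well. Il13, 12654 bases from Il4 and another type 2 cytokine, had 0 or 1 count in each library of day 0 and 15.5, 13.8 and 7.15 CPM in CTL 92, 93 and 97, beside 7.46, 9.61 and 6.67 CPM in LIP 90, 96 and 97 of day 2. Unlike those of Il4, these groups overlapped. Ltb, 3060 bases from Tnf and coding for the membrane partner of lymphotoxin alpha, went from 186 to 223 CPM over the libraries of day 0 to 68.1 to 107 CPM on day 2. It fell by 1.12 (SE 0.14, edgeR adjusted p 1.16e-05) in CTL and by 0.73 (SE 0.14, edgeR adjusted p 0.000421) in LIP on the log2 scale, whereas Tnf and Lta rose. Il17f, 42647 bases from Il17a, had 10 counts in LIP 96, the library with most Il17a, and 0 to 2 in the other 11. Gm12534, on the opposite strand of Il21, had 28 counts in LIP 96, beside 3260 of Il21, and 0 to 10 in the other libraries, and Adad1, opposite Il2, had 0 to 4.

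Of 22 other cytokines that helper T cells make, 13 passed the filter of the fit over 12 libraries. Of these, Il9, Il13, Il24, Lif, Ebi3 and Spp1 passed only through day 2 and had to differ, and of the 7 that passed on the libraries of each day alone, 3 rose and 3 fell with stimulation in each group. Tgfb1, which encodes a regulatory cytokine, rose by 1.45 in CTL and 1.48 in LIP on the log2 scale. Between LIP and CTL, 0 were called on either day by edgeR (7 tested on day 0, 13 on day 2), with 2 and 3 at an unadjusted p under 0.05, where 13.9% and 16.5% of all genes were, the 3 of day 2 being Osm at 0.54, Ebi3 at 1.17 and Lif, a cytokine of the interleukin-6 family, at 0.54, all higher in LIP; DESeq2 called 0 of the 4 with an adjusted p on day 0 and 1 of 13, Ebi3, on day 2, against 3.07% and 3.62% of all genes. Of 7 chemokines, 4 passed, Ccl3 and Ccl4 only through day 2 and Xcl1 only through day 0, and the remaining one, Ccl5, fell with stimulation in both groups. Ccl5, which attracts T cells and monocytes, was at 4.47, 2.34 and 2.42 CPM in CTL 92, 93 and 97, below the 7.77, 8.05 and 14.6 CPM of LIP 90, 96 and 97 of day 2, a log2 fold change of 1.79 (SE 0.35, edgeR adjusted p 0.114), and was called by DESeq2.

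Of 18 receptor chains for the member cytokines, 15 passed, 14 of them on each day alone, and 4 of the 14 rose and 5 fell with stimulation in each group, beside the 69% and 71.8% of all genes called in CTL and LIP. Il2ra, the high-affinity chain of the IL-2 receptor, rose by 4.30 (SE 0.14) in CTL and 4.05 (SE 0.14) in LIP, and Ifngr1, the ligand-binding chain of the interferon gamma receptor, fell by 1.75 and 1.25. None of the chains was called by edgeR between LIP and CTL, with 3 of 14 at an unadjusted p under 0.05 on day 0 and 2 of 15 on day 2, against 13.9% and 16.5% of all genes, while DESeq2 called 1 on each day, Il2ra and Il10ra, both higher in LIP. Il10ra, which binds interleukin-10, differed by 0.89 (SE 0.23, edgeR adjusted p 0.150) on day 2. Of 25 transcription factors that act on cytokine genes, 9 rose and 9 fell in CTL, and 9 rose and 10 fell in LIP, near those shares of all genes. Irf4, which T cell receptor signals induce, rose by 6.06 and 6.19 on the log2 scale. Between LIP and CTL, Jun and Fos were lower in LIP on day 0, at -1.28 (SE 0.20, edgeR adjusted p 0.0199) and -1.89 (SE 0.32, edgeR adjusted p 0.0286), and edgeR called no other gene of the 4 lists on that day, while DESeq2 called 3 factors, these and Stat6, all lower in LIP. On day 2 Ahr, the aryl hydrocarbon receptor that type 17 cells use, was at 26.8, 26.2 and 30.9 CPM in CTL 92, 93 and 97, above the 6.14, 8.54 and 12.0 CPM of LIP 90, 96 and 97, a log2 fold change of -1.58 (SE 0.23, edgeR adjusted p 0.0972), and was the 1 factor that DESeq2 called on that day.

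The gene whose log2 CPM followed each member most closely over the 12 libraries, among 15474 others, was Edn1 for Il2 (Pearson r 0.994), AW112010 for Il21 (0.978), Lockd for Il4 (0.981), Plpp2 for Ifng (0.981), Lif for Tnf (0.994), Mapkapk2 for Lta (0.998), Malt1 for Il10 (0.991) and Itfg1 for Csf2 (0.978). These are descriptions over libraries that share the step from day 0 to day 2.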

How the data were processed

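The deposited values are expected counts per gene, which the authors estimated with RSEM 1.3.0 and Bowtie2 after FastQC 0.11.9 and Trimmomatic (0.38 in the submitters' processing notes, another version in the study's methods) on GRCm39, from directional libraries made after rRNA depletion; the methods also name HISAT2. Whether counting used strand, and the annotation release, are not given in the sources used here. The authors' tables of each day also hold normalized signal, log2 fold changes, p-values and false discovery rates, which were not used, gene symbols excepted, and 2 columns of samples without labels were left out.

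Counts were rounded to whole numbers. CPM is relative to the library total. Tests used R 4.3.3 and edgeR 4.0.16 (filterByExpr by group, TMM, quasi-likelihood test), on the 6 libraries of a day for LIP against CTL and on all 12 with 4 group means otherwise. Adjusted p is by Benjamini-Hochberg over all genes tested, with a threshold of 0.05. SE is the absolute log2 fold change divided by the square root of F. An exact permutation test of 3 against 3 libraries cannot go below 0.1 and was not used. Alternatives were DESeq2 1.42.0, other normalizations and filters, each library left out, and another transcript length. Fits were tested on simulated data. Positions and exon lengths came from GENCODE M39. No replicate pair agreed within sampling noise. The genes named were all members, the genes on either side and overlapping, the 4 smallest p of each list at most, and the most similar gene; Il17f, Kif3a and Gm49751 are a neighbour and overlapping records. The members and lists were chosen with earlier results of these data known.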

Additional observations from a re-analysis of the deposited data

How the results depend on the processing

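The counts of members called between LIP and CTL on day 0 stayed at 0 under every alternative, DESeq2 giving no adjusted p for them. On day 2 the count was 0, except 6 with no filter on low counts and 5 without LIP 90 (Il2, Ifng, Il4 and, through the filter, Il17a and Csf2), so that it ran from 0 to 5 when libraries were left out in turn. The counts for day 2 against day 0 were 8 in each group, except 3 in each with at least 10 counts in every library, which leaves 3 members in the test, 9 in CTL and 10 in LIP with no filter, and 7 in CTL with the 6 libraries of that group only, and ran from 7 to 8 in CTL and from 8 to 9 in LIP when libraries were left out. The difference of the LIP effect had 0, except 1 with no filter, and stayed at 0 when libraries were left out. With the longest transcript as length, 33 of 40 ranks of members within groups were kept, and with TMM-normalized CPM 35 of 40 group means stayed within 1 SD. With the overlapping record Gm49751 added to Ifng (chosen after seeing the data) the day 2 count stayed at 0. Values that changed sign, none of them called, were the log2 fold changes of Ifng on day 0 with library totals only (0.030), and of Il21 (-0.044) and Lta (-0.013) on day 2 without the libraries with B cell marker RNA, where 1 LIP library was left and 0 of 7 members were called. When libraries were left out in turn, 7 changed sign, none of them called: between LIP and CTL Ifng (-0.28 to 0.45) and Il21 (-0.92 to 0.13) on day 0 and Lta (-0.11 to 0.25) on day 2, and in the difference of the LIP effect Tnf (-0.14 to 0.020), Il4 (-0.99 to 0.30), Il10 (-0.15 to 1.27) and Csf2 (-2.39 to 1.67). All genes called on day 2 numbered 0 in the main test, 489 by DESeq2, and 775 with 12 libraries in 1 fit, and on day 0 60, 206 by DESeq2 and 12 with 12 libraries in 1 fit. Il3 and Il17a were under 3 counts in 8 libraries each, and no level could be given for them there. No paired analysis was possible because the groups compared share fewer than 2 replicate numbers.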
